A study of Homo sapiens with 6 samples.

Results

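This account covers 45 genes of the centromere, the kinetochore and the spindle checkpoint, out of 11886 genes with a value in every library. The members were chosen by name: every symbol made of CENP and a single letter except CENPJ, which is a centriole protein, together with a list of kinetochore and checkpoint genes. All 45 had a value at each time, and none was listed at 0. Transcripts were measured in U2OS cells, an established human osteosarcoma line, in 6 libraries. Cells carried siRNA against E2F7 (siE2F7) or control siRNA without a target (siNT). All groups, the controls included, had first been arrested for 24 h by 4 mM hydroxyurea, a blocker of DNA synthesis. They were taken 0, 3 or 12 h after it was washed out, when by the study's design cells were entering S phase, within it, or near mitosis. Each arm had 1 library at each time, so the comparison of arms is repeated over times and not over cultures of a single time.

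The centromere is the chromosome region marked by nucleosomes that hold the histone H3 variant CENPA, and the kinetochore is the protein machine built on it in mitosis. Its inner layer, the constitutive centromere-associated network, sits on CENPA chromatin. Its outer layer, made of the Mis12, Ndc80 and KNL1 complexes, binds spindle microtubules and carries the checkpoint proteins that delay anaphase until every chromosome is attached. Many of these genes are transcribed in a cell cycle dependent way, some with the E2F targets of G1/S and others with the G2/M genes. E2F7 is a repressor of E2F target genes.

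E2F7 itself was at 20.3, 29.4 and 16.6 FPKM in siNT at 0, 3 and 12 h and at 9.48, 10.6 and 5.52 FPKM in siE2F7, where FPKM are fragments scaled by transcript length and by the number of mapped fragments. It was lower in the siE2F7 library at each time. Over the times its log2 change was -1.37 ± 0.10 (adjusted p = 0.00102). Cyclin B1 (CCNB1), a mitotic cyclin, was at 86.5 FPKM at 0 h and 193.0 at 12 h in siNT and at 71.0 and 234.4 in siE2F7. Of 7 osteoblast lineage markers 6 were listed at all times, and COL1A2 was not among them. COL1A1 and SPARC were between 261.4 and 528.3 FPKM in every library. RUNX2 was between 2.83 and 4.6 FPKM, SPP1 between 5.39 and 8.65, ALPL between 4.6 and 12.4 and TNFRSF11B between 10.3 and 22.3. The estimates of all 6 were below 0 in siE2F7 (median -0.29), with ALPL (-0.37 ± 0.10, adjusted p = 0.043) and TNFRSF11B (-0.56 ± 0.13, adjusted p = 0.0289) called lower, and their summed level was 806.4 to 942.6 FPKM in siNT and 688.3 to 843.8 in siE2F7. Of 7 blood and endothelial markers 1 was listed at all times, LAPTM5, at 2.47 FPKM or less. The 4 epithelial markers listed at all times of 6 sought summed to between 244.6 and 302.6 FPKM in siNT and 202.9 and 224.0 in siE2F7. Nearly all of it was KRT8 and KRT18, which are listed at the same locus and were called lower in siE2F7. CLDN4 was also called lower (-0.66 ± 0.17, adjusted p = 0.0429), and EPCAM did not pass. The part of these marker differences in the members' differences was not tested. FPKM hold no counts, so the depth behind each value is unknown. Whether the times were scaled together is also unknown, so levels at different times are set side by side with no test.

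With E2F7 knocked down, the estimated change of centromere and kinetochore transcripts was above 0 in 41 of 45 members (91.1%), where that of 44.1% of all genes was. Of the 45 members, 15 rose, none fell and 30 did not pass the test (limma over all genes with time as a block, Benjamini-Hochberg adjusted p below 0.05). The 15 were CENPH, DSN1, MLF1IP, SPC25, CASC5, BUB3, CENPV, OIP5, CENPC1, NDC80, CENPB, BIRC5, ZWINT, CENPA and HJURP, and their log2 changes lay between 0.32 and 0.82. Of all genes tested, 6.76% were called higher and 7.13% lower, against 33.3% and 0 of 45 members. At an unadjusted p under 0.05, 26 members were higher (57.8%, against 13.5% of all genes) and 0 lower (against 16.7%). The median log2 change was 0.22 over the members and -0.03 over all genes. In 34 of 45 members (75.6%) the siE2F7 library was above the siNT library at each of the 3 times, where 22.8% of all genes did so. In 7 members, CENPB, CENPH, CENPK, CENPV, MLF1IP, SPC25 and ZWINT, all 3 siE2F7 libraries lay above all 3 siNT libraries (15.6%, against 6.88% of all genes). The RNA came from whole cultures, so a different share of cells in a phase and a different amount of transcript per cell cannot be told apart.

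CENPH, MLF1IP and BUB3 were called whichever time was left out, and the other 12 were not. Without the libraries of 3 h 5 members were called, BUB3, CASC5, CENPH and MLF1IP of the 15, and SPC24. Without the variance trend of the test 5 were called, CENPB, CENPH, CENPV, MLF1IP and OIP5, and with no time block 0 were (limma, 8 of 45 higher and 0 lower at an unadjusted p under 0.05). The count over all 11886 genes moved as well. It was 803 higher in the main fit, 332 without 3 h, 400 without the trend and 15 with no block.

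**Figure D1:**
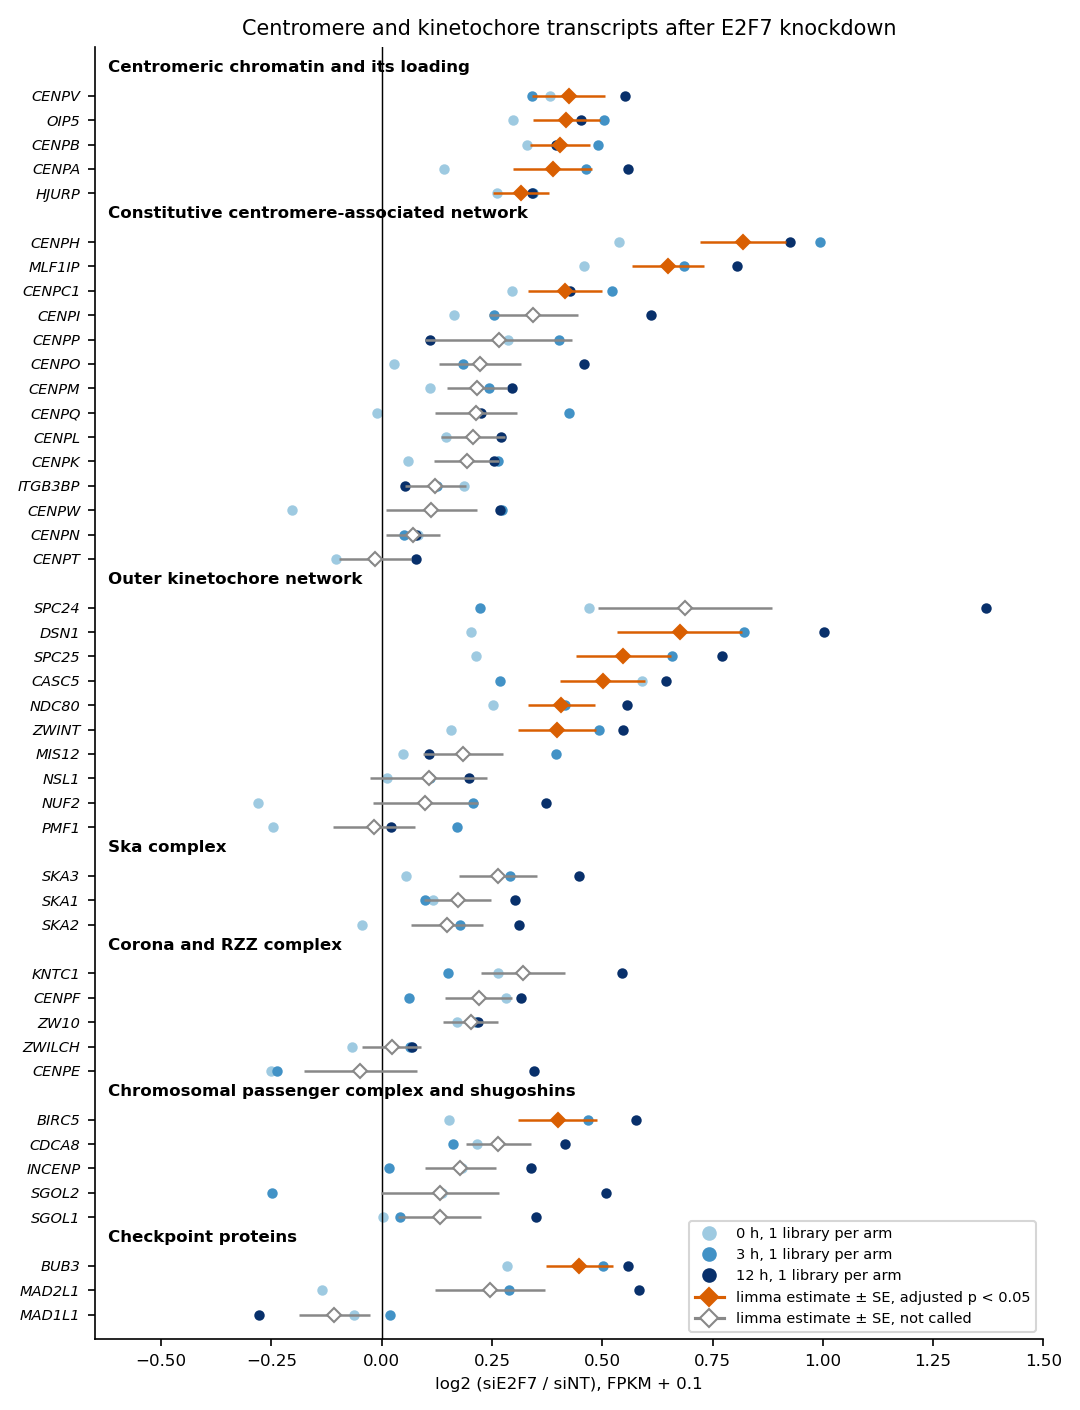
Log2 ratio of siE2F7 to siNT for the 45 members, grouped by role. Circles are the ratio at 0, 3 and 12 h (1 library per arm each), and diamonds with bars are the limma estimate over the 3 times with its standard error, filled where called. Filled diamonds lie at 0.32 or higher, and in most rows the 12 h circle lies to the right of the 0 h circle.

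Every gene of centromeric chromatin and its loading rose. CENPA, the centromeric H3 variant, encoded at hg19 chr2:27008882-27017455, stood at 30.0, 35.0 and 72.6 FPKM in siNT at 0, 3 and 12 h and at 33.1, 48.2 and 107.0 FPKM in siE2F7. The arms nearly met at 0 h and were furthest apart at 12 h, with a log2 change of 0.39 ± 0.09 across times (SE, 3 pairs of libraries, adjusted p = 0.0312). Among members with a promoter entry, promoters were picked for the 3 called ones with the largest change, MLF1IP, DSN1 and SPC25. Those of the 3 with the highest mean difference between 12 h and 0 h, CENPE, CENPA and CDCA8, were picked too. The promoters of DSN1 and CENPE held none of the words searched for and are not printed. The CENPA promoter is shown here. It is RefSeq's, of build GRCh38.p14, from 250 bases before the transcription start to 50 bases after, so the start is base 251, and it runs 5' to 3' on the gene's strand. Capitals mark words tied to cell cycle control, searched on both strands: the E2F word as TTTCCCGC, TTTCGCGC, TTTGCCGC or TTTGGCGC, the cell cycle genes homology region (CHR) of many G2/M genes as TTTGAA, and the CCAAT box as CCAAT.
CENPA, chr2:26785806-26786105, plus strand: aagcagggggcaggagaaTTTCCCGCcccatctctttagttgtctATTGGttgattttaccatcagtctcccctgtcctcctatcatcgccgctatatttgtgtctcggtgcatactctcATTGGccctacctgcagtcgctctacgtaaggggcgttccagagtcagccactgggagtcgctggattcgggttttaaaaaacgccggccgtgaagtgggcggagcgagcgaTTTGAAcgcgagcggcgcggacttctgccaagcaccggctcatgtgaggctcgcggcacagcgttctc
An E2F word lies at -232 from the start, CCAAT boxes lie at -205 and -130, and a CHR lies at -18.

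HJURP, the chaperone that deposits CENPA, was at 30.4, 27.3 and 64.7 FPKM in siNT and 36.4, 34.6 and 81.9 FPKM in siE2F7, a log2 change of 0.32 ± 0.06 (adjusted p = 0.0194), with nearly equal ratios at the 3 times. OIP5, a subunit of the Mis18 complex that prepares centromeres for new CENPA, was at 13.4, 11.4 and 21.4 FPKM in siNT and 16.5, 16.2 and 29.3 in siE2F7, a change of 0.42 ± 0.08 (adjusted p = 0.0136). In CENPA, HJURP and OIP5 the arms overlap across times, because 12 h in siNT exceeds 0 h in siE2F7.

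CENPB, which binds a motif in centromeric satellite DNA, and CENPV, another centromere protein, kept apart across all times. CENPB ranged from 22.5 to 31.5 FPKM in siNT and from 31.7 to 39.6 FPKM in siE2F7, a log2 change of 0.41 ± 0.07 (adjusted p = 0.0102). CENPV was at 10.6, 10.3 and 7.62 FPKM in siNT and 13.8, 13.1 and 11.2 FPKM in siE2F7, a change of 0.42 ± 0.08 (adjusted p = 0.0175). Both had their lowest siE2F7 value just above their highest siNT value. All 5 calls of this group ended without the 3 h libraries (adjusted p from 0.0584 to 0.119). CENPA and HJURP were also not called without 12 h (0.0962 and 0.0638), nor CENPV without 0 h (0.0516).

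In the constitutive centromere-associated network 3 of 14 genes rose, and the group held the largest called change. CENPH, a core subunit encoded at hg19 chr5:68485375-68506184, was at 23.0, 19.2 and 16.5 FPKM in siNT and at 33.4, 38.4 and 31.5 FPKM in siE2F7. Every siE2F7 library was above every siNT library, and the log2 change was 0.82 ± 0.10 (adjusted p = 0.00351), or 1.76-fold. MLF1IP (hg19 chr4:185570767-185655286), which encodes CENP-U, followed at 38.0, 28.3 and 26.6 FPKM in siNT and 52.3, 45.5 and 46.6 FPKM in siE2F7, a change of 0.65 ± 0.08 (adjusted p = 0.00383), also with no overlap. Its locus overlaps that of CCDC111, where reads may have been split. Its promoter is shown as that of the called member with the second highest fold among those with an entry (capitals as for CENPA).
MLF1IP (CENPU), chr4:184734047-184734346, minus strand: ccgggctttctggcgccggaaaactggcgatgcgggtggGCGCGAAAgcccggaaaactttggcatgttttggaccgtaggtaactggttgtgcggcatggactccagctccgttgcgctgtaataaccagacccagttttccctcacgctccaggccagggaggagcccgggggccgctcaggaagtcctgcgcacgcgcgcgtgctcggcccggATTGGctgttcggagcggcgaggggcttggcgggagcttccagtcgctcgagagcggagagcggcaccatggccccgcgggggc
An E2F word lies at -211 and a CCAAT box at -34, both on the opposite strand. CENPC1, which links CENPA nucleosomes to the outer layer, was at 7.92, 6.96 and 11.9 FPKM in siNT and 9.74, 10.0 and 16.0 FPKM in siE2F7, a change of 0.42 ± 0.08 (adjusted p = 0.0201, and 0.101 without 3 h).

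The 11 other genes of this network did not pass. CENPI was the highest of them at 0.34 ± 0.10 (adjusted p = 0.064), with 13.9, 9.53 and 12.3 FPKM in siNT and 15.6, 11.4 and 18.8 in siE2F7, and it was called after quantile normalization (adjusted p = 0.048) and median-ratio scaling (0.0434). It was not called without the variance trend (0.128), with no time block (0.712) or with any time left out (0.0686 to 0.238). CENPK, a partner of CENPH, had a narrow gap, with siNT from 22.6 to 26.0 FPKM and siE2F7 from 27.0 to 27.4, and a log2 change of 0.19 (adjusted p = 0.125). Changes of 0.21 to 0.27 with adjusted p of 0.0771 or more were estimated for CENPL, CENPM, CENPO, CENPP and CENPQ. CENPW, ITGB3BP (CENP-R) and CENPN, the last a direct reader of CENPA nucleosomes, were between 0.07 and 0.12. CENPT, a second link to the outer layer and the partner of CENPW, was lowest at -0.01 ± 0.08 (adjusted p = 0.921), with 10.6, 9.24 and 11.5 FPKM in siNT and 9.82, 9.13 and 12.1 in siE2F7. CENPN, CENPO, CENPP and CENPT share their loci with other entries. Members of the network thus ranged from 0.82 down to -0.01, and the difference between members was not tested.

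The outer kinetochore network had 5 of 10 genes that rose. In the Ndc80 complex, which binds microtubules, the level of SPC25 (hg19 chr2:169727401-169746944) was 73.5, 65.5 and 66.7 FPKM in siNT and 85.3, 103.4 and 113.9 FPKM in siE2F7, without overlap, a log2 change of 0.55 ± 0.11 (adjusted p = 0.0178). NDC80 itself was at 52.0, 53.0 and 88.2 FPKM in siNT and 61.9, 70.6 and 129.7 FPKM in siE2F7, a change of 0.41 ± 0.08 (adjusted p = 0.0151). The promoter of SPC25 is shown as another of those picked by knockdown change.
SPC25, chr2:168890381-168890680, minus strand: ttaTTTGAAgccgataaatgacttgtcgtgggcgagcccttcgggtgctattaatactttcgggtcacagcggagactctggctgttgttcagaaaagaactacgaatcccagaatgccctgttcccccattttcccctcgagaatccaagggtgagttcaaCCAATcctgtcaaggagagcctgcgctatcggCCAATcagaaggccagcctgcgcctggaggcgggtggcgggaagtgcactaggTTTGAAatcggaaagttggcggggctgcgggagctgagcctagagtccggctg
It holds a CHR at -3, another at -247, and CCAAT boxes at -88 and -56. The calls of SPC25 and NDC80 ended without 3 h (0.0756 and 0.0555), and that of NDC80 also without 12 h (0.0523). SPC24, the partner of SPC25, was at 9.11, 6.41 and 7.77 FPKM in siNT and 12.7, 7.50 and 20.3 FPKM in siE2F7. Its 12 h pair stood far from the other pairs, at 2.59-fold, and its log2 change of 0.69 ± 0.20 was not called (adjusted p = 0.0594). Without the 12 h libraries the estimate was 0.35 (adjusted p = 0.0907), and without those of 3 h it was 0.92 and called (0.0478). SPC24 was also called after quantile normalization (0.0451), with median-ratio scaling (0.0378) and without genes sharing a locus (0.0314). It was not called without the variance trend (0.134), with no time block (0.56) or without 0 h (0.0877). NUF2, the partner of NDC80, was at 30.5, 29.7 and 45.7 FPKM in siNT and 25.1, 34.3 and 59.2 in siE2F7, so it was lower at 0 h and higher later, with a change of 0.10 (adjusted p = 0.626).

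In the Mis12 complex, which joins the inner to the outer layer, DSN1 rose and the 3 other subunits did not pass. DSN1 (hg19 chr20:35380194-35402230) was at 32.6, 17.6 and 18.0 FPKM in siNT and at 37.5, 31.1 and 36.2 FPKM in siE2F7. Its siNT level was lower at 3 and 12 h than at 0 h while its siE2F7 level stayed between 31.1 and 37.5, and the ratio was 1.15-fold at 0 h and 2.0-fold at 12 h. The log2 change was 0.68 ± 0.14 (adjusted p = 0.0224, and 0.0982 without 3 h). MIS12, NSL1 and PMF1 had changes of 0.18, 0.11 and -0.02. PMF1, the lowest of the outer network, was at 19.9, 18.8 and 19.2 FPKM in siNT and 16.8, 21.2 and 19.5 in siE2F7, and its locus overlaps the read-through entry PMF1-BGLAP. CASC5 (KNL1), the docking platform of the checkpoint, was at 7.67, 8.71 and 12.0 FPKM in siNT and 11.6, 10.5 and 18.9 FPKM in siE2F7, a change of 0.50 ± 0.10 (adjusted p = 0.0172, and 0.064 without 0 h). ZWINT, which binds KNL1, was the most abundant member, at 159, 117 and 120 FPKM in siNT and 177, 165 and 175 FPKM in siE2F7, with no overlap and a change of 0.40 ± 0.09 (adjusted p = 0.0274, 0.0894 without 3 h and 0.112 without 12 h).

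**Figure D2:**
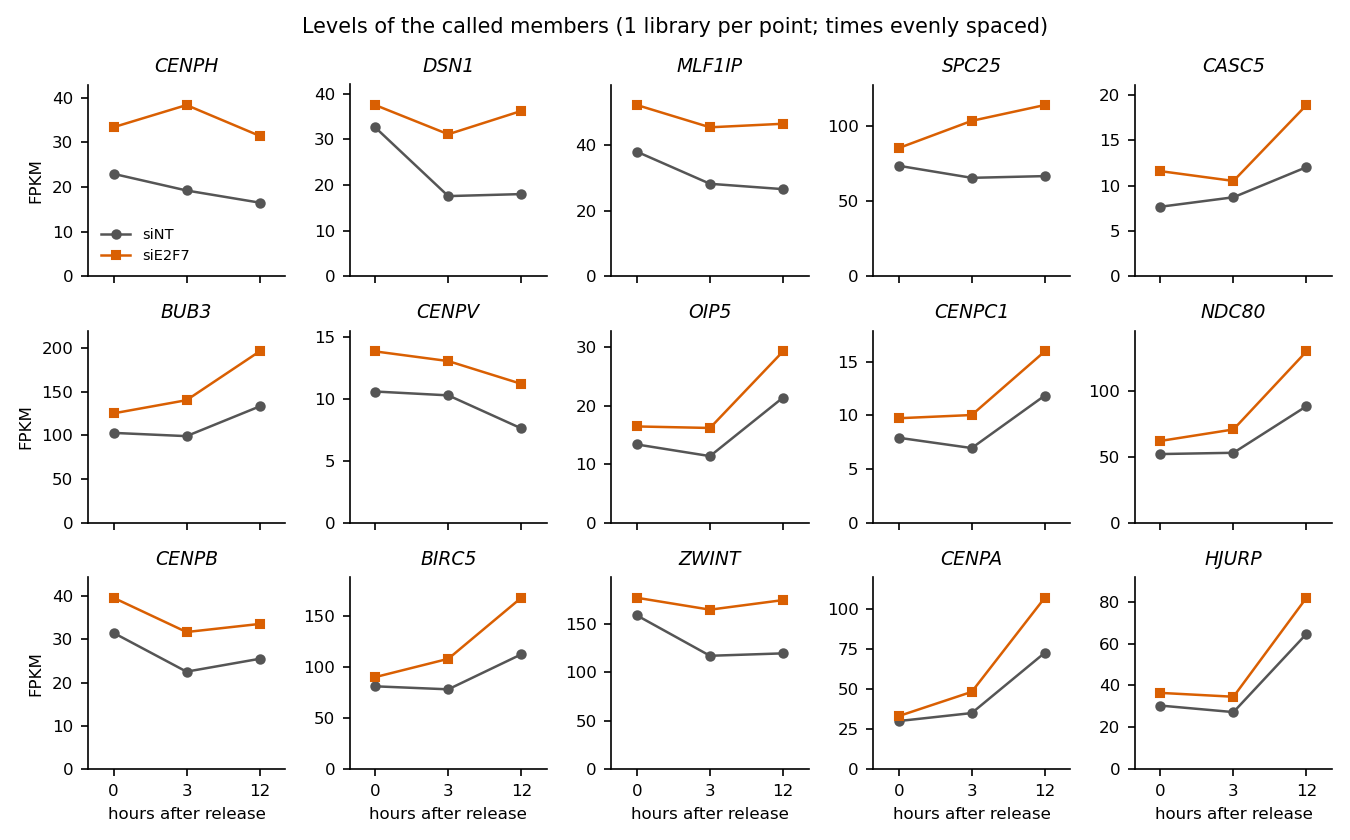
FPKM of the 15 called members at 0, 3 and 12 h in siNT (grey circles) and siE2F7 (orange squares), 1 library per point, with the times evenly spaced and each axis starting at 0. The siE2F7 point is above the siNT point at every time in all 15 panels. CENPH, DSN1, MLF1IP, CENPV, CENPB, SPC25 and ZWINT are lower at 12 h than at 0 h in siNT. The others, CENPA, HJURP, NDC80, OIP5, CENPC1, CASC5, BUB3 and BIRC5, are higher at 12 h in both arms.

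No gene of the Ska complex or of the corona passed. The Ska complex helps the outer kinetochore follow shortening microtubules, and its 3 subunits had log2 changes of 0.26 for SKA3 (adjusted p = 0.0897), 0.17 for SKA1 (0.176) and 0.15 for SKA2 (0.274). SKA3, whose locus overlaps MRP63, was at 23.8, 17.6 and 22.9 FPKM in siNT and 24.7, 21.5 and 31.3 FPKM in siE2F7, while SKA2 was at 37.5, 33.4 and 47.6 and at 36.4, 37.8 and 59.0. All 3 had their largest ratio at 12 h. KNTC1, the large subunit of the RZZ complex that recruits the minus-end motor dynein, was at 13.6, 10.5 and 10.2 FPKM in siNT and 16.4, 11.7 and 14.9 FPKM in siE2F7, a change of 0.32 ± 0.10 (adjusted p = 0.0658, and 0.0483 with median-ratio scaling). KNTC1 was not called without the variance trend (0.126), with no time block (0.647) or with any time left out (0.0909 to 0.244). Its partners ZW10 and ZWILCH had changes of 0.20 (adjusted p = 0.0735) and 0.02 (0.848).

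CENPE, a kinesin that moves chromosomes to the spindle equator, had opposite signs across the times. It was at 7.64, 9.36 and 18.5 FPKM in siNT and at 6.40, 7.92 and 23.5 FPKM in siE2F7. The siE2F7 library was thus lower at 0 and 3 h and higher at 12 h, and the change over the times was -0.05 ± 0.13 (adjusted p = 0.83). CENPF, a large corona protein, was at 22.1, 30.1 and 43.9 FPKM in siNT and 26.9, 31.4 and 54.7 FPKM in siE2F7, a change of 0.22 ± 0.08 (adjusted p = 0.0959).

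In the chromosomal passenger complex, which corrects faulty attachments, BIRC5 (survivin) rose. Its level was 81.4, 78.4 and 112.8 FPKM in siNT and 90.4, 108.4 and 168.4 FPKM in siE2F7, a log2 change of 0.40 ± 0.09 (adjusted p = 0.0287, 0.0975 without 3 h and 0.101 without 12 h). The ratio was 1.11-fold at 0 h, 1.38-fold at 3 h and 1.49-fold at 12 h. CDCA8 (borealin) was at 26.0, 26.6 and 60.0 FPKM in siNT and 30.2, 29.8 and 80.0 FPKM in siE2F7, a change of 0.26 ± 0.07 that missed the threshold (adjusted p = 0.0561) and was called with median-ratio scaling (0.0361). CDCA8 was not called without the variance trend (0.129), with no time block (0.925) or with any time left out (0.0929 to 0.241). Its promoter is shown as another of those picked by the difference between 12 h and 0 h.
CDCA8, chr1:37692266-37692565, plus strand: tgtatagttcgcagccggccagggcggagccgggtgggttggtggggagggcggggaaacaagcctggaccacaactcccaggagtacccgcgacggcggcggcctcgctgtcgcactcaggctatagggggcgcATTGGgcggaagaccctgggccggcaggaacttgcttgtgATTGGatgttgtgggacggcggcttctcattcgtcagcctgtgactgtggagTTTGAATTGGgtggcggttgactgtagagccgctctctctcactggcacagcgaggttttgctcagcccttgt
A CHR at -23 runs into a CCAAT box at -18 and shares a base with it, and further boxes lie at -75 and -115. INCENP, the scaffold, had a change of 0.18 (adjusted p = 0.189). The shugoshins, which protect centromeric cohesion, did not pass. SGOL1 was at 11.2, 8.04 and 13.7 FPKM in siNT and 11.2, 8.27 and 17.5 in siE2F7, and SGOL2 at 11.4, 10.2 and 23.2 and at 12.6, 8.60 and 33.0, with changes of 0.13 each (adjusted p = 0.397 and 0.555). SGOL1 thus had nearly equal levels in the arms until 12 h.

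Of the 3 checkpoint proteins, BUB3 rose. BUB3 (hg19 chr10:124913760-124924886), which brings checkpoint kinases to KNL1, was at 103.0, 99.3 and 133.3 FPKM in siNT and 125.4, 140.5 and 196.4 FPKM in siE2F7, a log2 change of 0.45 ± 0.08 (adjusted p = 0.0104). Its call held whichever time was left out (adjusted p from 0.0169 to 0.0406). MAD2L1, the diffusible inhibitor of anaphase, was at 68.3, 54.6 and 64.5 FPKM in siNT and 62.2, 66.6 and 96.8 FPKM in siE2F7, lower at 0 h and higher later. Its change was 0.25 ± 0.12 (adjusted p = 0.233), and it was called without the 0 h libraries at 0.44 (adjusted p = 0.0413). MAD1L1, which holds MAD2L1 at unattached kinetochores, had the lowest estimate of all members, -0.11 ± 0.08 (adjusted p = 0.416), with 23.5, 21.7 and 27.4 FPKM in siNT and 22.5, 22.0 and 22.6 in siE2F7.

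The gap between the arms was wider at 12 h than at 0 h in most members. Each time sets 1 library against 1, so these ratios have no replicate check. The median log2 ratio of the members was 0.15 at 0 h, 0.26 at 3 h and 0.37 at 12 h, and that of all genes -0.04, 0.00 and -0.04. The siE2F7 library was higher in 35, 42 and 44 of 45 members at the 3 times, beside 44.5%, 50.1% and 44.1% of all genes, the exception at 12 h being MAD1L1. In 41 of 45 members (91.1%) the ratio was larger at 12 h than at 0 h, against 48.8% of all genes. A ratio of at least 1.5-fold was reached at 0 h by 1 member, CASC5 (2.22% of members, 2.70% of all genes). At 3 h it was reached by 4 (8.89%, against 3.90%), CENPH, DSN1, MLF1IP and SPC25. At 12 h it was reached by 7 (15.6%, against 5.07%), these 4 with CASC5, CENPI and SPC24. That last count was 11 after quantile normalization and 15 with median-ratio scaling. Such scaling moves all genes of a library. With median ratios the log2 shifts taken out at 12 h were 0.025 for siNT and -0.024 for siE2F7. This lowers the siNT values and raises the siE2F7 values of all genes. The share of all genes past 1.5-fold on these scales was not counted, so whether the larger counts are particular to the members was not tested.

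Genes that mark the phases also differed between arms. The 5 G1/S genes checked, CCNE1, CCNE2, CDC6, MCM10 and CDC25A, all rose, with summed levels of 101 to 254 FPKM in siNT and 180 to 414 FPKM in siE2F7. Of the 6 G2/M genes checked, CCNA2 and TOP2A rose and CCNB1, CCNB2, CDK1 and CCNF did not pass. Their summed levels were 470, 519 and 846 FPKM in siNT at 0, 3 and 12 h and 497, 625 and 1106 FPKM in siE2F7. None of the 11 was at 0. The part of phase composition in the members' differences was not tested. E2F7 represses E2F targets, which include G1/S genes, so such genes may differ between arms with or without a difference in phase.

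**Figure D3:**
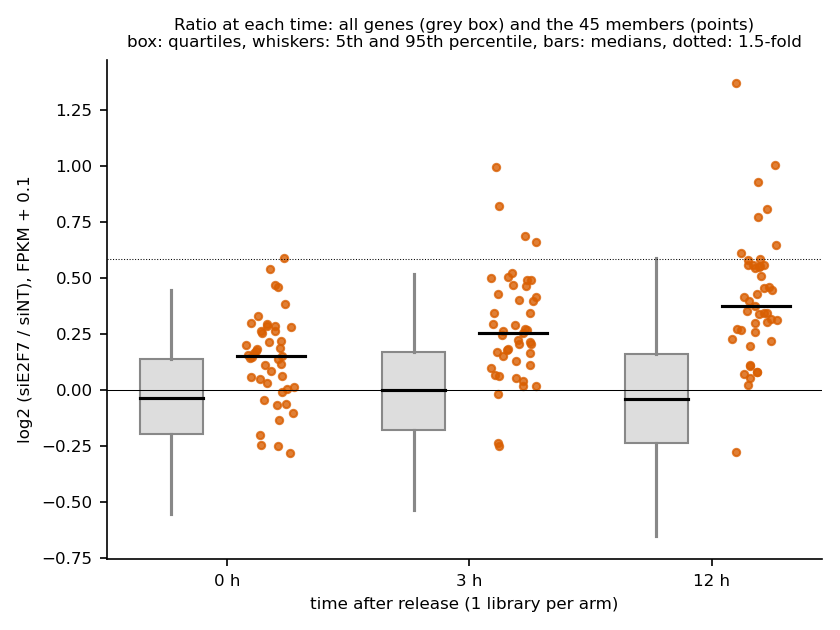
Log2 ratio of siE2F7 to siNT at 0, 3 and 12 h, 1 library per arm. Grey boxes give the quartiles, with whiskers to the 5th and 95th percentiles, of all 11886 genes, and orange points the 45 members, with black bars at the medians. The members' median is 0.15, 0.26 and 0.37 at the 3 times, while that of all genes lies between -0.04 and 0.

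Across time the members did not share a direction. Between 0 and 12 h the median log2 difference of the members was -0.05 in siNT and 0.34 in siE2F7, beside -0.03 and -0.05 over all genes. In siNT 21 of 45 members were higher at 12 h (46.7%, near the 45.9% of all genes), and in siE2F7 29 were (64.4%, against 44.6%). At least 2-fold higher in both arms were 5 members (11.1%), CENPE, CENPA, CDCA8, SGOL2 and HJURP, where 0.648% of all genes were. CENPF lay at the edge, at 1.98-fold in siNT and 2.03-fold in siE2F7. No member was at least 2-fold lower in both arms, where 0.900% of all genes were. These values carry no test, and the 0 h and 12 h libraries also enter the comparison of the arms.

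The highest mean differences were those of CENPE, CENPA and CDCA8. CENPE was 2.40-fold higher at 12 h than at 0 h in siNT and 3.63-fold in siE2F7. CENPA, from the values above, was 2.42-fold and 3.23-fold higher, and CDCA8 2.30-fold and 2.64-fold. The lowest mean differences were those of DSN1, CENPQ and CENPV. DSN1 at 12 h was 0.55 times its 0 h level in siNT and 0.97 times in siE2F7. CENPQ, a subunit of the inner network, was at 27.6, 24.3 and 18.6 FPKM in siNT and 27.4, 32.7 and 21.8 FPKM in siE2F7. CENPV stood at 0.72 and 0.81 times its 0 h level. By role, the passenger complex with the shugoshins had median log2 differences of 0.74 in siNT and 0.90 in siE2F7, and centromeric chromatin 0.67 and 0.83, whereas the inner network had -0.18 and 0.10 and the outer network -0.18 and 0.32. The medians were -0.05 and 0.34 for the Ska complex and 0.22 and 0.64 for the checkpoint proteins. The median of the corona and RZZ group was below 0 in both arms, at -0.25 and -0.14, but its genes were split. CENPE (1.26 and 1.86) and CENPF (0.99 and 1.02) were higher at 12 h, and KNTC1, ZW10 and ZWILCH were lower in both arms. Taken in steps, the members' median was -0.17 in siNT and -0.02 in siE2F7 between 0 and 3 h, and 0.27 and 0.47 between 3 and 12 h.

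**Figure D4:**
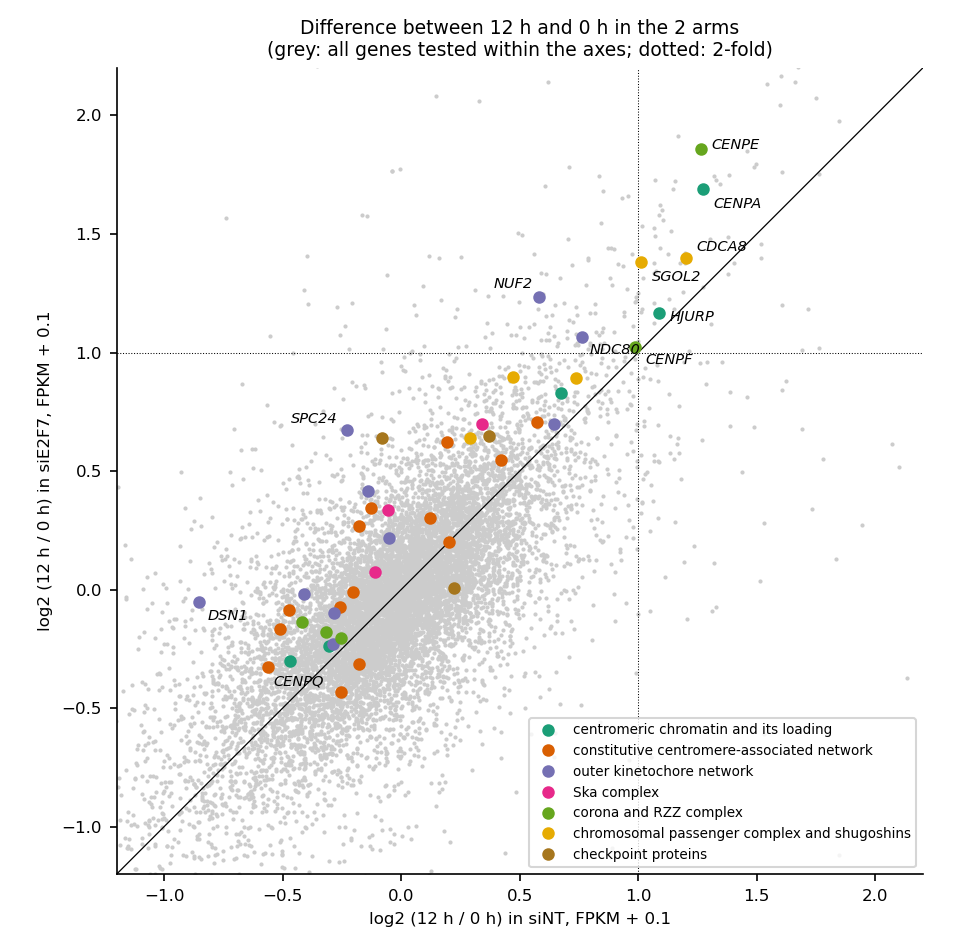
Log2 difference between 12 h and 0 h in siNT (horizontal axis) and siE2F7 (vertical axis), each from 1 library per time. Coloured points are the 45 members by role, grey points the 11573 tested genes that fall inside the axes, the diagonal marks equal differences and dotted lines 2-fold. CENPE, CENPA, CDCA8, SGOL2 and HJURP lie past both dotted lines, and DSN1 is the member furthest to the left.

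Subunits of a complex differed widely in level. On the FPKM scale, which is per transcript length, the mean over the 6 libraries ran from 2.23 FPKM for CENPP, whose locus overlaps 4 other entries, and 3.13 for NSL1 up to 133.0 for BUB3 and 152 for ZWINT, with a median of 25.5 FPKM, beside 11.2 FPKM for all genes tested. In the Ndc80 complex, SPC25 (84.7) and NDC80 (75.9) exceeded SPC24 (10.6) in every library. In the checkpoint group BUB3 was above MAD2L1 in every library, and both were above MAD1L1. ZWINT and BUB3 overlap in range, at 117 to 177 and 99.3 to 196 FPKM, so their order rests on the mean.

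Of 5 checkpoint and centromere kinases, BUB1B rose by 0.40 ± 0.09 on the log2 scale (adjusted p = 0.0259), and BUB1, TTK, AURKB and PLK1 did not pass. PLK1, which primes many kinetochore substrates, was 3.40-fold higher at 12 h than at 0 h in siNT and 5.53-fold in siE2F7, with a knockdown change of -0.02 (adjusted p = 0.938). Of 17 further centromere and kinetochore factors, 2 rose, 0 fell and 15 did not pass. Of all genes 6.76% were called higher and 7.13% lower, and lists this small were not compared with those shares. BOD1, a regulator of kinetochore phosphatase activity, rose by 0.92 ± 0.08 (adjusted p = 0.00102), with 9.86, 9.24 and 10.9 FPKM in siNT and 19.3, 18.3 and 19.5 FPKM in siE2F7, without overlap. NDE1, an adaptor of dynein, rose by 0.41 ± 0.11 (adjusted p = 0.0437, 0.119 without 3 h and 0.183 without 12 h), while BUB1B was not called without 3 h (0.118) or 12 h (0.0711).

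Across the members, the same words were searched in all RefSeq promoters at hand. Those of build GRCh38.p14, from 250 bases before to 50 bases after the start, matched 38 of 45 members, with CENPC1, MLF1IP, SGOL1 and SGOL2 found under their current names CENPC, CENPU, SGO1 and SGO2. CENPH, CENPL, CENPM, CASC5, KNTC1, BIRC5 and BUB3 had no entry. An E2F word was in 4 of 38 member promoters (10.5%, against 3.3% of 35116 promoters of any kind), those of CENPA, OIP5, MLF1IP and MIS12. A CHR was in 16 (42.1%, against 15.2%) and a CCAAT box in 23 (60.5%, against 34.6%). The CHR count was 8 in the 250 bases before the start alone (21.1%, against 13.3%), since the other 8 promoters held it at or after the start or across it. These are matches of letters and not shown to be sites. The promoters of DSN1 and CENPE held none of the searched words in this window, which says nothing of the factors. Among the 11 called members with an entry, 3 held an E2F word, 6 a CHR and 7 a CCAAT box, and among the 27 not called 1, 10 and 16, given as counts with no test.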

How the data were processed

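RNA of U2OS cells was sequenced in 6 libraries, 1 for each arm (siNT, siE2F7) and time (0, 3 and 12 h). The submitters deposited FPKM per gene, and per the submitters' processing notes the reads were handled with CASAVA 1.8 on GRCh37 (hg19). Which program counted the reads, whether by strand and with what scaling is not given in the sources used here. FPKM hold no counts, so depth and counting error are unknown. Nothing in the labels names a separate culture, and p-values measure the spread of the arm difference over the 3 times.

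The 11886 genes listed at all 3 times were kept with no further filter on level. The deposited lists held from 12299 to 12799 genes by time, and how genes came to be listed is unknown. Values were put on the scale log2(FPKM + 0.1) and fitted in R 4.3.3 with limma 3.58.1, by arm with time as a block and a variance trend, two-sided, with Benjamini-Hochberg adjustment over all of them at 0.05. It had 2 residual and 5.4 prior degrees of freedom, and was first tested on simulated data. A fold on this scale understates the change of low genes. Ratios at a single time and differences between times are values without a test, counted past 1.5-fold and 2-fold.

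The members and lists were chosen with earlier results of these data known. Values are given for called members, for the highest and lowest of each role and for the 3 highest and 3 lowest differences between 12 h and 0 h; other members named with their values (among them CENPI, CENPK, NUF2, KNTC1, CDCA8 and MAD2L1) were chosen after their values were seen. Alternatives changed the pseudocount, filter, scaling, variance trend, block, genes sharing a locus and times left out. Of the members, 8 share a locus with another entry, as do 2070 genes in all. Promoters are RefSeq's of GRCh38.p14, matched by symbol or synonym.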

Additional observations from a re-analysis of the deposited data

Results flagged for a closer look

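4 members had a ratio of siE2F7 to siNT that was on opposite sides of equality at different times, by at least 0.2 on the log2 scale. Each time has 1 library per arm, and the difference between times was not tested. CENPE was at -0.25 at 0 h and 0.34 at 12 h. NUF2 was at -0.28 at 0 h and 0.37 at 12 h. CENPW was at -0.2 at 0 h and 0.27 at 3 h. SGOL2 was at -0.25 at 3 h and 0.51 at 12 h. In all 4 the later of the named times had the positive ratio.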

How the results depend on the processing

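The 15 members called higher stayed 15 with a pseudocount of 1 or 0.01 or a mean of at least 1 FPKM, and were 17 after quantile normalization and 21 with median-ratio scaling. Over all 11886 genes the count called higher was 803 in the main fit, 965 after quantile normalization and 1039 with median-ratio scaling. Leaving out genes that share a locus gave 18 of 37 members tested, and 821 of 9816 genes. The count of members was 5 without the variance trend, 0 with no time block, and between 5 and 14 when the libraries of a time were left out. That of all genes was 400, 15, and between 332 and 557. No member was called lower in any of these fits. At least 1.5-fold at 0 h were 0 members with a pseudocount of 1. At 12 h they were 11 after quantile normalization and 15 with median-ratio scaling, where the share of all genes was not counted. The CHR count was 8 in the 250 bases before the start. Signs turned for 6 members with estimates near 0. Over the times left out, CENPE ranged from -0.244 to 0.053, CENPT from -0.061 to 0.030, NUF2 from -0.038 to 0.289, PMF1 from -0.113 to 0.096, SGOL2 from -0.056 to 0.322 and ZWILCH from -0.001 to 0.067. CENPT was at 0.005 after quantile normalization and 0.011 with median-ratio scaling, PMF1 at 0.008 with the latter and ZWILCH at -0.002 after quantile normalization. The cause was not tested. Of single gene values under all alternatives, 454 kept direction and side of the threshold, 52 lost and 14 gained a call, and 11 changed sign. The block by time pairs the arms at each time; the labels give no replicate numbers. With 1 library per arm and time, unknown depth and 3 repeats of the contrast, members that were not called may still differ.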
